A study of Mus musculus with 24 samples.

Results

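Circular RNAs of cardiac fibroblasts were compared between hearts under pressure overload and sham-operated hearts 1 week after surgery. The comparison used 8 of the 24 libraries of the series: 4 TAC libraries and 4 sham libraries, in which all 1717 circular RNAs of the authors' table were measured. TAC (transverse aortic constriction) is a suture tied around the aortic arch between the innominate and left carotid arteries, which narrows the vessel and loads the left ventricle; the sham mice had the operation without the tie. Per the labels all mice were male C57BL/6J, operated on at 8 weeks of age, with no other genotype or agent, and hearts were also taken 4 and 8 weeks after surgery. Fibroblasts were isolated on a Langendorff perfusion apparatus, total RNA was depleted of ribosomal RNA, and stranded paired-end libraries were sequenced. The sources used here give no sort or gate for the cells and do not say whether each library came from a separate mouse, so the p-values measure only the spread between libraries.

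A circular RNA forms when the spliceosome ligates the donor end of an exon backwards onto the acceptor of the same exon or of one that precedes it, a step called back-splicing. The ring has no free ends, resists exonucleases and outlives most linear transcripts, and a gene can give several rings that differ in their exons. Cardiac fibroblasts make the collagen matrix of the heart; under pressure overload they are known to divide, to adhere and contract more strongly and to deposit matrix, with an early proliferative phase that precedes scar formation.

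The 8 libraries held 3595 to 5977 back-splice junction reads. TAC libraries averaged 5207 ± 1097 reads and sham libraries 4681 ± 725 reads (SD, n = 4 each), a difference that did not pass (exact permutation test over libraries, two-sided, p = 0.457; the smallest p that 4 against 4 allows is 0.0286). At an equal depth of 3595 reads, 1180 ± 16.9 circles were detected in TAC libraries and 1147 ± 55.4 in sham libraries (exact permutation p = 0.343). The reads were thin: the median was 2 reads per circle and library, and 398 circles had a read in all 8 libraries. Levels are given as normalized reads, in which 1 read was worth 0.958 to 1.538 depending on the library. A few junction reads carry a wide counting error, and fold changes are on the log2(normalized reads + 0.5) scale. For low circles such a change depends on the added 0.5 and on libraries without a read. It can be larger or smaller than the ratio of the group means. The defining genes of the labelled cell type were barely represented: Dcn, the matrix proteoglycan decorin, had 1 circle with 3 reads in TAC libraries and 7 reads in sham libraries, and the table listed no circle of Pdgfra, Tcf21, Col1a1, Col1a2, Col3a1, Postn or Acta2. Other cell types were represented: Adgre1, the macrophage surface receptor F4/80, had 6 circles with 233 reads in TAC libraries and 175 in sham libraries.

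At 1 week, 25 of 1717 circular RNAs (1.46%) differed between TAC and sham, 13 higher (0.757%) and 12 lower (0.699%), at an adjusted p under 0.05 by limma with Benjamini-Hochberg adjustment over all circles. The 25 came from 23 host genes. The 4 TAC libraries did not overlap the 4 sham libraries for 16 of the 25; over all circles, TAC lay wholly above sham for 38 (2.21%) and wholly below for 52 (3.03%). At an unadjusted p under 0.05 there were 201 circles (11.7%). The median log2 difference over all circles was 0.04, and 51.9% were above 0. When the reads of all circles of a gene were summed, 22 of 1187 host genes (1.85%) differed, 12 higher (1.01%) and 10 lower (0.842%), with 145 (12.2%) at an unadjusted p under 0.05; over all hosts TAC lay wholly above sham for 29 (2.44%) and wholly below for 36 (3.03%). Of these 22 hosts, 17 also had a called circle and 5 passed only as sums. Itgbl1, Arhgef40, Cdkn3, Nlrp5-ps, Setbp1, Ablim3, Tlk1, Sptlc2 and Bcl2l13 had 1 circle each. For these the sum is the circle itself, and the circle and host calls rest on the same reads. The counts depended on the libraries in the fit: with the 1-week libraries alone, in place of all 24, 4 circles and 8 hosts were called. The circles were Tns3 exons 18-20, Mettl9 exons 2-4, Ezh2 exons 2-3 (47576536-47577667) and Ryr2 exons 59-62. The hosts were Tns3, Ezh2, Itgbl1, Bub1b, Creb3l2, Ryr2, Ttn and Gm28437. Every other circle and host called at 1 week lost its call in that fit. Leaving out 1 of the 8 libraries gave 6 to 32 circles, the fewest without sham replicate 2 and the most without sham replicate 4, and 12 to 31 hosts, the fewest without TAC replicate 3 and the most without sham replicate 1 or 3. Ryr2, Ttn, Gm28437, Tns3, Ezh2 and Sptlc2 were called as sums without any 1 of the 8 libraries; at the level of single circles this held for Ryr2 exons 59-62 alone. Among the rings of the other hosts in this set, Sptlc2 exons 5-6 lost its call in 5 of the 8 fits (adjusted p 0.0516 to 0.0753), and the rings of Gm28437 in 5 (0.0548 to 0.12) and 6 (0.0631 to 0.329). The Sptlc2 sum is that ring alone, with 9 reads in sham and 0 in TAC libraries. Its host call was lost with the 1-week libraries alone.

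**Figure D1:**
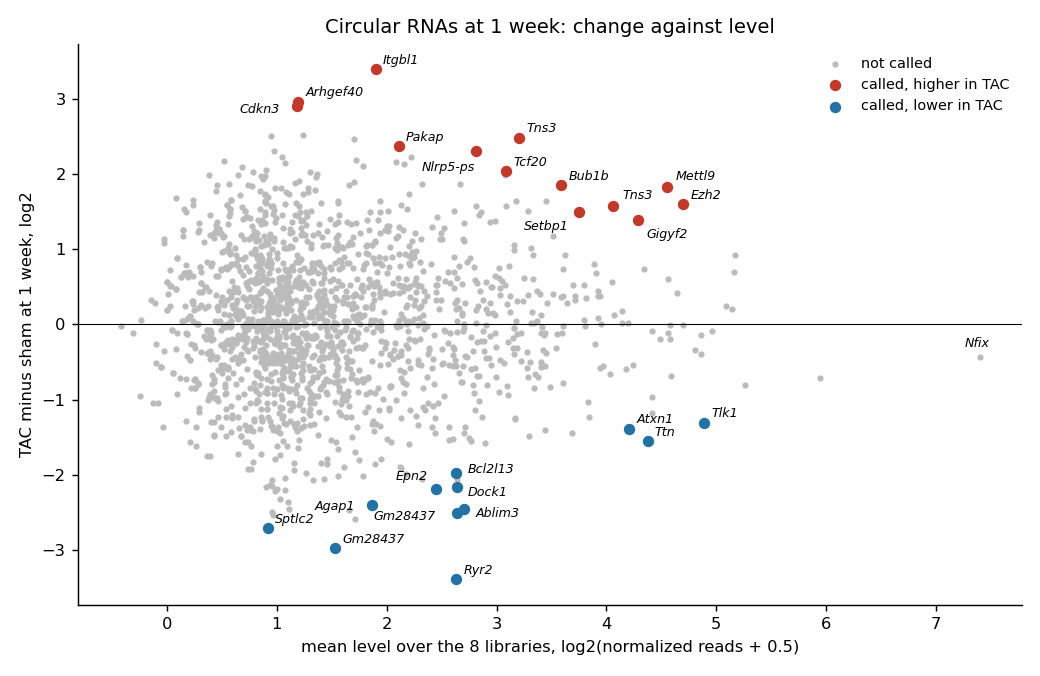
Difference between TAC and sham at 1 week (log2, vertical axis) against mean level over the 8 libraries (log2 of normalized reads + 0.5, horizontal axis) for the 1717 circular RNAs; coloured points are the 13 circles called higher and the 12 called lower in TAC, by host name. The called circles lie at the outer edge of the cloud at each level, and the most abundant circle, from Nfix, is not among them.

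The back-splice junctions of circles on which the results below turn are shown here as their RNA-derived DNA sequence in the mm10 build, read from GENCODE transcripts, 5′ to 3′ with the last bases of the downstream exon in lower case and the first bases of the upstream exon in capitals. The boundary between the cases is the back-splice; of the 23 called junctions that could be built, 0 occurred in a linear GENCODE transcript. The first 4 circles were higher in TAC and the last 4 lower.
Tns3 exons 18-20: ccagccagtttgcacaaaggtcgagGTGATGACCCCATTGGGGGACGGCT
Bub1b exons 17-19: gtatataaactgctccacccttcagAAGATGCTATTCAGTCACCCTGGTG
Itgbl1 exons 3-7: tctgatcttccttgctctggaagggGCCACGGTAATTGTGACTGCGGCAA
Gigyf2 exons 4-8: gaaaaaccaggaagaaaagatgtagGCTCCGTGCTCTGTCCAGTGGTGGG
Ryr2 exons 59-62: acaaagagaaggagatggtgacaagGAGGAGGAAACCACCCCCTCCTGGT
Ttn exons 85-118: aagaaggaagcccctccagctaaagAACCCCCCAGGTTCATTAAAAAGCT
Tlk1 exons 2-3: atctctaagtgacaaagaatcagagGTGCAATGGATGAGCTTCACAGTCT
Sptlc2 exons 5-6: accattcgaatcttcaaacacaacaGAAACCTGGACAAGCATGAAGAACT
These rings lie within coding exons. The Tns3 ring spans chr11:8478225-8479665 on the minus strand and is 360 nt long when spliced; the Bub1b ring spans chr2:118631759-118635277 on the plus strand, the Itgbl1 ring chr14:123827752-123857579 on the plus strand (699 nt) and the Gigyf2 ring chr1:87364104-87380008 on the plus strand (494 nt). The Ryr2 ring spans chr13:11680966-11688013 (427 nt), the Ttn ring chr2:76857904-76881839 (6213 nt), the Tlk1 ring chr2:70770004-70786995 (191 nt) and the Sptlc2 ring chr12:87346708-87350385 (219 nt), all on the minus strand.

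Among the host genes that were higher in TAC, 3 are known for chromatin silencing and cell division. Ezh2, the catalytic subunit of a Polycomb repressive complex, had 29.2, 55.6, 42.9 and 66.2 normalized reads over its circles in the 4 TAC libraries, against 10.0, 16.2, 24 and 12.4 in the 4 sham libraries. Every TAC library exceeded every sham library, and the summed level rose by 1.61 ± 0.35 on the log2 scale (SE; limma, adjusted p = 0.00219). Most of the reads came from a pair of rings that share their start in exon 2 and differ in their end in exon 3: the larger, of 253 nt, averaged 38.4 ± 12.5 in TAC and 12.5 ± 5.12 in sham, and the smaller, of 226 nt, 8.85 ± 2.19 in TAC and 3.21 ± 1.12 in sham. The larger ring was called (1.6 on the log2 scale; limma, adjusted p = 0.0113), and its call was lost without TAC replicates 2 or 4 (0.0547 to 0.0629). The larger holds both untranslated and coding sequence. The long ring over exons 2-15 had 5 reads in TAC and 0 in sham libraries.

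Bub1b, a kinase-like protein of the spindle checkpoint that delays chromosome separation until all chromosomes are attached, had 41.5, 24, 18 and 16.5 normalized reads in TAC, against 11.3, 6.23, 6.01 and 4.14 in sham. The groups did not overlap, TAC replicate 1 was the highest, and the sum rose by 1.77 ± 0.46 on the log2 scale (limma, adjusted p = 0.0182). The call was lost without TAC replicate 1 (adjusted p = 0.0987), TAC replicate 2 (0.0536) or sham replicate 4 (0.0586). Its 3 rings, exon 9, exons 16-17 and exons 17-19, had 14, 9 and 64 reads in TAC and 4, 4 and 14 reads in sham. Cdkn3, which dephosphorylates cyclin-dependent kinases, was read as exons 2-6 with 1.54, 4.79, 2.99 and 4.86 normalized reads in TAC and with none in any sham library. Its TAC mean was 3.82 times a floor of 3 reads over the 4 sham libraries (14 reads against 0), a ratio that bounds the sham side only. As a host sum it was called higher (limma, adjusted p = 0.0208). That call was lost without TAC replicates 2, 3 or 4 or sham replicate 2 (adjusted p 0.0506 to 0.0788). In the circle fit the adjusted p was 0.0294 (limma).

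The wider list of cell cycle and mitosis genes had 28 circles from 18 hosts, of which 2 were called higher (Bub1b exons 17-19 and Cdkn3 exons 2-6) and 0 lower. Neither ring call was stable: that of Bub1b was lost in 8 of the 8 fits that left out a library (adjusted p 0.0517 to 0.207), at a pseudocount of 0.1 (0.0978), with median-of-ratios scaling (0.0561) and with limma-voom (0.0612), and that of Cdkn3 in 6 of 8 (0.0516 to 0.0925) and at a pseudocount of 0.1 (0.0505). The median log2 difference of the list was 0.82, against 0.04 over all circles, with 22 above 0 and 6 below. Summed over the list, TAC libraries held 123.0, 109.0, 89.8 and 94.4 normalized reads and sham libraries 51.5, 61.1, 85.7 and 76.5, so that the lowest TAC library lay just above the highest sham library. Of the members that did not pass, Spag5, a spindle protein, had 11 reads in TAC and 2 in sham for Spag5 exons 17-23, and Espl1, the protease separase, 15 in TAC and 5 in sham for Espl1 exons 5-7; both were picked here after their values were seen. Cdk8 exons 2-4, from the kinase of the Mediator complex and the second most abundant ring of the list, averaged 10.1 ± 5.61 in TAC and 12.2 ± 5.86 in sham. In the same libraries the macrophage marker list summed to 82.7 to 177.0 normalized reads in TAC and 78.1 to 182.0 in sham. The part of the cell mixture in the mitotic circles was not tested.

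Chromatin regulators were not of a single direction. Of 93 circles from 55 hosts, 3 were called higher (Ezh2, Tcf20 and Setbp1) and 1 lower (Tlk1), 55 lay above 0 and the median was 0.18. Setbp1, which encodes a binding partner of the SET protein, had a single-exon ring at 21.5, 16.3, 16 and 19.5 normalized reads in TAC and 7.54, 8.73, 1.5 and 12.4 in sham. The groups did not overlap, and the log2 difference was 1.5. Its SE was 0.43 in the circle fit (limma, adjusted p = 0.042) and 0.41 in the host fit (limma, adjusted p = 0.0256). The host call was lost without TAC replicates 1, 2, 3 or 4 or sham replicate 3 (adjusted p 0.0535 to 0.296) and with limma-voom (0.0936). The ring call was lost without these libraries or sham replicate 2 (adjusted p 0.0625 to 0.351). It was also lost at a pseudocount of 0.1, with median-of-ratios scaling and with limma-voom.

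Tlk1, a kinase that acts on histone chaperones during chromatin assembly, went the other way. Its ring of exons 2-3 had 12.3, 20.1, 16 and 18.5 normalized reads in TAC, against 46.5, 44.9, 36.1 and 39.3 in sham. The highest TAC library lay below the lowest sham library, and the SD within groups was 3.41 in TAC and 4.85 in sham. The level fell by 1.31 on the log2 scale (SE 0.34), with an adjusted p of 0.0239 in the circle fit and 0.0182 in the host fit (limma). The host call was lost without TAC replicate 1 (adjusted p = 0.0688) or TAC replicate 3 (0.0502), where the log2 difference was -1.17 and -1.29. The ring call was lost there too (0.0744 and 0.058) and without sham replicate 2 (0.0803).

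Genes of adhesion and of the matrix were also among the hosts that rose. Tns3 encodes tensin 3, which ties integrins at focal adhesions to actin filaments. Its summed circles had 50.7, 40.3, 32.9 and 33.1 normalized reads in TAC, against 27.6, 11.2, 6.01 and 10.3 in sham. All TAC libraries exceeded all sham libraries, and the sum rose by 1.66 ± 0.35 on the log2 scale (limma, adjusted p = 0.0017). The gene gave 2 abundant rings that share no exon. Exons 18-20 had 20, 12.5, 7.99 and 17.5 in TAC and 3.77, 3.74, 0 and 4.14 in sham, and exons 14-16 had 30.8, 25.9, 22 and 15.6 in TAC and 20.1, 4.99, 4.51 and 6.2 in sham. Exons 11-16, which use the same end as exons 14-16, had 5 reads in TAC and 6 in sham.

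Itgbl1, a secreted protein built of integrin-like repeats, was read in every TAC library, at 3.08, 1.92, 16 and 4.86 normalized reads, and in no sham library. With 25 reads against 0, its TAC mean was 6.95 times a floor of 3 reads over the 4 sham libraries (host sum, limma, adjusted p = 0.00573). The ratio bounds the sham side only. TAC replicate 3 held most of the reads, and without it the call was lost (adjusted p = 0.0717). Arhgef40, a guanine nucleotide exchange factor, had 4.61, 4.79, 2.0 and 2.92 in TAC and none in sham (13 reads against 0). Its TAC mean was 3.86 times the same floor of 3 reads. The host sum was called (limma, adjusted p = 0.0182), and that call was lost without TAC replicate 1 (0.0548) or 2 (0.0589). In the circle fit its adjusted p was 0.0241 (limma), and the call was lost in 4 of the 8 fits that left out a library (0.0548 to 0.0827).

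These rises were not shared across their lists. Integrin adhesion genes had 32 circles from 13 hosts, 2 called higher, both from Tns3, and 2 called lower, from Dock1 and Agap1. For Tns3 exons 18-20 the difference was 2.48, and without sham replicate 3, which had no read of it, 1.7 with the call lost (limma, adjusted p = 0.096). Tns3 exons 14-16 lost its call in 6 of the 8 fits that left out a library (0.0576 to 0.141) and at a pseudocount of 0.1 (0.0505). Over the list the median was -0.24 and the list summed to 65.9 to 93.8 normalized reads in TAC and 57.1 to 94.2 in sham. Structural matrix genes had 18 circles, 1 called higher and 0 lower, with a median of 0.13. The most abundant matrix ring, from Svep1, a large adhesion protein of the extracellular matrix, had 16.9, 15.3, 16 and 7.78 in TAC and 6.28, 3.74, 3.01 and 5.17 in sham. The groups did not overlap, but the difference of 1.51 ± 0.52 did not pass (limma, adjusted p = 0.126). The 4 circles of matrix proteases all lay below 0 with a median of -0.72 and 0 calls; the membrane-type metalloproteinase ring Mmp15 exons 2-3 averaged 24.9 ± 8.58 in TAC and 50.8 ± 36.5 in sham (adjusted p = 0.165), with sham replicate 1 at 99.2. Actin and contraction genes had 32 circles, 0 called higher and 1 lower (Ablim3), 22 of them below 0, with a median of -0.38 and sums of 70.9 to 96.9 in TAC and 104.0 to 132.0 in sham, which did not overlap.

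For 3 hosts of unrelated roles, Itpr2, Creb3l2 and Phkb, the summed rings were called higher while no ring passed alone. Itpr2, a calcium release channel of the endoplasmic reticulum, gave 4 rings with 7, 10, 9 and 7 reads in TAC and 1, 4, 1 and 0 reads in sham, none of which passed alone. Summed, they had 12.3, 3.83, 8.98 and 11.7 normalized reads in TAC and 2.51, 2.49, 3.01 and 0 in sham, without overlap, a rise of 2.17 ± 0.57 on the log2 scale (limma, adjusted p = 0.0186). The call was lost without TAC replicates 1, 3 or 4 (adjusted p 0.0575 to 0.0788), with limma-voom (0.0507), and without sham replicate 4, which had no read (log2 difference 1.5, adjusted p = 0.165). Creb3l2, a transcription factor released from the endoplasmic reticulum membrane that is known to drive secretory pathway genes, had 13.8, 15.3, 21.0 and 9.73 in TAC and 6.28, 1.25, 4.51 and 2.07 in sham. The groups did not overlap (2.09 ± 0.56; limma, adjusted p = 0.0203); the call was lost at a pseudocount of 0.1 (0.125), and without TAC replicates 1, 2 or 3 or sham replicates 2 or 4 (0.0516 to 0.128).

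Phkb, a regulatory subunit of the kinase that switches on glycogen breakdown, gave 4 rings, 3 of them starting at exon 3. Their sum was 13.8, 17.3, 22 and 26.3 normalized reads in TAC and 2.51, 8.73, 9.02 and 12.4 in sham, without overlap (1.37 ± 0.39; limma, adjusted p = 0.0284), and the call was lost without TAC replicates 2, 3 or 4 or sham replicate 1 (0.0537 to 0.239) and with limma-voom (0.0625). Mettl9, a histidine methyltransferase, averaged 38.8 ± 15.3 in TAC and 18.6 ± 13.1 in sham, with overlapping groups (1.38 ± 0.36; limma, adjusted p = 0.0182). Sham replicate 1 was at 2.51 and the other sham libraries at 18.6 to 34.6; without it the difference was 0.64 (adjusted p = 0.37), and the call was also lost without TAC replicates 2, 3 or 4 (0.0605 to 0.0977). Its called ring, Mettl9 exons 2-4, had 7.69, 32.6, 34.9 and 51.6 in TAC and 0, 15, 28.6 and 13.4 in sham (1.83 ± 0.41; adjusted p = 0.0068). Without sham replicate 1 the ring's difference was 0.53 (0.619) and without sham replicate 3 it was 2.48; the call was also lost without TAC replicates 3 or 4, at a pseudocount of 0.1 (0.0503) and with a minimum mean of 5 reads (0.0792). Nlrp5-ps, a pseudogene, had 9.23, 4.79, 13 and 10.7 in TAC and 0, 0, 10.5 and 4.14 in sham (2.31 ± 0.63; limma, adjusted p = 0.0218). Its groups overlapped, the difference was 3.16 without sham replicate 3, and the call was lost without sham replicates 1 or 2 (1.67 in each case) or TAC replicates 1, 3 or 4 (adjusted p 0.0548 to 0.208).

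**Figure D2:**
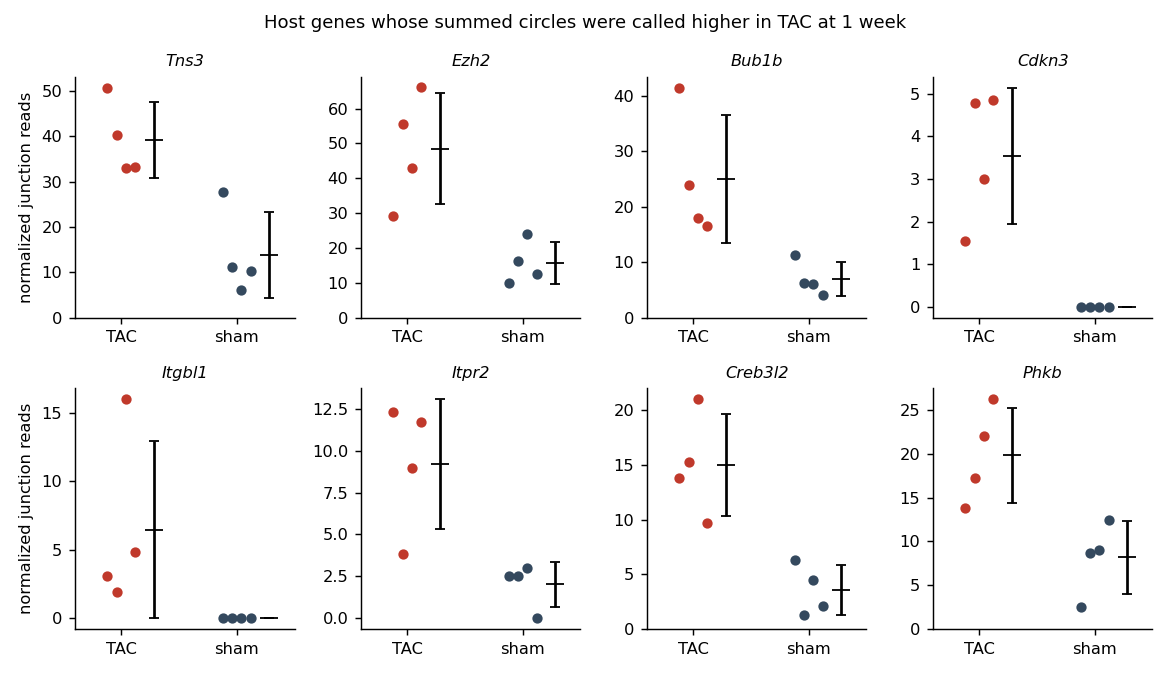
Normalized junction reads summed over all circles of 8 host genes called higher in TAC at 1 week (vertical axes include 0), with 1 point per library, TAC left and sham right, and the mean with SD beside the points. In all 8 panels the TAC points lie above the sham points; Cdkn3 and Itgbl1 had no read in any sham library.

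Among the host genes that were lower in TAC, the strongest calls were the heart muscle genes Ryr2 and Ttn. Ryr2, the channel that releases calcium from the sarcoplasmic reticulum at each heartbeat, had 0, 6.71, 0 and 0.973 normalized reads over its 3 rings in TAC, against 11.3, 8.73, 27.0 and 11.4 in sham. No TAC library reached the lowest sham library, and the sum fell by 3.43 on the log2 scale (SE 0.59; limma, adjusted p = 4.87e-05); without TAC replicate 2, the one TAC library with more than 1 read, the difference was -4.26. The ring of exons 59-62 carried 3 of the 8 TAC reads and 33 of the 45 sham reads. Ttn, the giant spring protein titin of the sarcomere, had 15.4, 8.63, 14 and 10.7 in TAC and 27.6, 39.9, 85.7 and 17.6 in sham. The groups did not overlap, and the sum fell by 1.56 on the log2 scale (SE 0.32; limma, adjusted p = 0.0017). Its rings over exons 85-118 and 84-118 share their end and had 33 and 7 reads in TAC and 95 and 23 in sham; the call of the first was lost without sham replicates 2 or 3 (0.0611 to 0.096).

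Both genes mark cardiomyocytes, and their sum in sham was led by the same library, sham replicate 3, at 27.0 for Ryr2 and 85.7 for Ttn. The table listed no circle of the other defining cardiomyocyte genes Myh6, Tnnt2 and Actc1. The list of sarcomere and muscle structure genes had 7 circles, 0 called higher and 1 lower, 5 of them below 0, with a median of -1.41. It summed to 20, 11.5, 19.0 and 17.5 normalized reads in TAC and 32.7, 52.4, 105.0 and 23.8 in sham. Apart from Ttn, Mlip exons 5-10, from a muscle lamin-interacting protein, had 2 reads in TAC and 12 in sham, while Dmd exons 72-77, from dystrophin, had 8 in TAC and 3 in sham; these were named after their values were seen and neither passed. Cacna1c exons 2-3, from the L-type calcium channel, averaged 8.22 ± 3.09 in TAC and 6.22 ± 3.95 in sham (limma, adjusted p = 0.808). In these bulk libraries fewer cells of a type and less RNA per cell cannot be told apart.

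Sham replicate 3 was also the highest library for Gm28437, a pseudogene on chromosome 1. Its short rings had 0, 0, 0.998 and 1.95 normalized reads in TAC and 1.26, 11.2, 39.1 and 10.3 in sham, and the sum fell by 3.31 on the log2 scale (SE 0.71; limma, adjusted p = 0.00188). TAC replicate 4 overlapped sham replicate 1. The difference was -4.13 without sham replicate 1 and -2.63 without sham replicate 3. The junctions lie on the minus strand and not at annotated exon boundaries. The stretch enclosed by the longer ring, chr1:24613551-24613613 (63 nt), also occurs letter for letter in the transcript of the mitochondrial gene mt-Co3, and the reads may come from either gene. It is printed here, without capitals, because it shows the shared stretch whole.
Gm28437 24613551-24613613: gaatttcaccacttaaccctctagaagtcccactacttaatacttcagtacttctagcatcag

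Lncpint, a long noncoding RNA known in mouse as a target of p53, had 6.15, 1.92, 0 and 0.973 normalized reads in TAC, against 13.8, 9.97, 7.51 and 8.27 in sham. The groups did not overlap and the sum fell by 2.45 on the log2 scale (SE 0.54; limma, adjusted p = 0.00233), with -1.82 and an adjusted p of 0.0658 without TAC replicate 3 and -3.06 without TAC replicate 1. Its 3 rings, the first of which shares an end with each of the others, had 2, 4 and 1 reads in TAC and 11, 11 and 10 in sham, and none passed alone.

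Atxn1 encodes the chromatin-bound repressor ataxin 1. Its 6 rings start within 3 bases of the same point in exon 2 and end at 4 different positions. Summed, they had 32.3, 36.4, 24 and 15.6 normalized reads in TAC and 76.6, 57.4, 34.6 and 50.7 in sham, and the sum fell by 1.02 on the log2 scale (SE 0.25; limma, adjusted p = 0.0127). The groups overlapped at sham replicate 3. Without TAC replicate 4, the lowest library, the difference was -0.78 (adjusted p = 0.131). Exons 2-3 averaged 10.6 ± 7.6 in TAC and 25.4 ± 12.5 in sham and was called, with the call lost in 4 of the 8 fits that left out a library (0.058 to 0.311) and with limma-voom; exons 2-4 averaged 6.71 ± 2.73 in TAC and 18 ± 3.89 in sham, whereas the longer rings had 17 reads in TAC and 19 in sham for exons 2-5 and 16 in TAC and 11 in sham for exons 2-6. The difference between short and long rings was not tested.

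The other host sums that fell were of lower level. Sptlc2, a subunit of the enzyme that starts sphingolipid synthesis, had no read in any TAC library and 2.51, 2.49, 3.01 and 3.1 normalized reads in sham. Its sham mean was 3.45 times a floor of 3 reads over the 4 TAC libraries (0 reads in TAC against 9, host sum, limma, adjusted p = 0.0182). The ratio bounds the TAC side only. The call of its ring was also lost at a pseudocount of 1, with limma-voom and with the 1-week libraries alone. Ablim3, an actin-binding LIM protein, had 3.08, 3.83, 0 and 0.973 in TAC and 8.79, 6.23, 15 and 10.3 in sham. Its groups did not overlap (-2.46 ± 0.57; limma, adjusted p = 0.00539), and without TAC replicate 3 the difference was -1.84 (0.0872). Bcl2l13, a mitochondrial outer membrane protein of the BCL-2 family that acts as a mitophagy receptor, had 3.08, 3.83, 2.0 and 0 in TAC and 15.1, 12.5, 3.01 and 6.2 in sham, with overlap (-1.98 ± 0.56; limma, adjusted p = 0.0285). Its call was lost without TAC replicate 4 (difference -1.30), TAC replicate 3 or sham replicates 1 or 2 (adjusted p 0.0535 to 0.339) and with limma-voom (0.0849). In the circle fit its ring also lost the call at pseudocounts of 0.1 and 1 and with TMM scaling. The gene 2010111I01Rik had 0, 7.67, 2.0 and 0 in TAC and 8.79, 7.48, 4.51 and 6.2 in sham (-2.23 ± 0.62; limma, adjusted p = 0.0264). Its groups overlapped through TAC replicate 2, without which the difference was -3.05; the call was lost without TAC replicates 1 or 4 or sham replicates 1 or 2 (0.0654 to 0.192) and with limma-voom (0.0882).

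**Figure D3:**
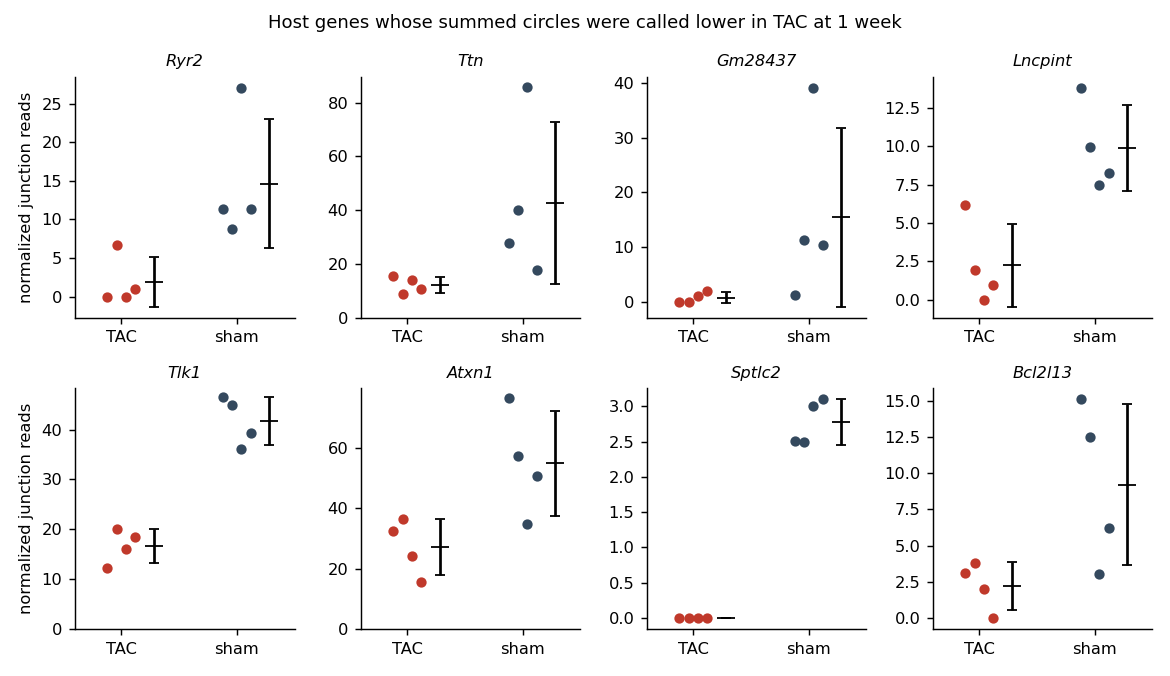
Normalized junction reads summed over all circles of 8 host genes called lower in TAC at 1 week, with 1 point per library, TAC left and sham right, and the mean with SD beside the points. The third sham point from the left, sham replicate 3, is the highest for Ryr2, Ttn and Gm28437; the Tlk1 groups are far apart, and Sptlc2 has no read in any TAC library.

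For 6 hosts a single ring passed while the gene's summed circles did not. Gigyf2, a partner of translational repression at the mRNA cap, shows this for an abundant ring: exons 4-8 had 24.6, 28.8, 22 and 35.0 normalized reads in TAC and 8.79, 7.48, 15 and 10.3 in sham, without overlap (1.39 ± 0.36; limma, adjusted p = 0.0241). The call was lost without TAC replicates 2 or 4 or sham replicate 2 (0.0649 to 0.0982). The rings that start at the same exon and end earlier had 4 reads each in TAC and 4 and 8 in sham. Tcf20, a transcriptional coregulator, had 7.69, 8.63, 19.0 and 11.7 in TAC and 0, 1.25, 7.51 and 8.27 in sham for exons 2-3 (2.04 ± 0.53; adjusted p = 0.0239), while the ring of exon 2 alone averaged 9.79 ± 4.45 in TAC and 5.81 ± 0.866 in sham. For Tcf20 exons 2-3 the groups overlapped; the difference was 1.21 without sham replicate 1, and the call was lost without that library, sham replicate 2 or TAC replicates 3 or 4 (0.0548 to 0.306) and with limma-voom (0.0638).

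Pakap, a locus that joins a paralemmin gene and an anchor protein gene for protein kinase A, had 4.61, 8.63, 4.99 and 6.81 in TAC and 2.51, 0, 3.01 and 0 in sham for a ring of 693 nt, without overlap (2.37 ± 0.69; limma, adjusted p = 0.0439). The call was lost without any of the TAC replicates or sham replicates 2 or 4 (0.0621 to 0.232), at a pseudocount of 1 (0.0513), with median-of-ratios scaling (0.0561) and with limma-voom (0.0508).

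The other 3 single rings were lower. Dock1 exons 26-27, from an activator of the GTPase Rac at adhesions, had 0, 3.83, 0.998 and 1.95 in TAC and 17.6, 15, 1.5 and 5.17 in sham (-2.16 ± 0.58; limma, adjusted p = 0.0241). Groups overlapped at sham replicate 3, without which the difference was -2.80; the call was lost without sham replicates 1 or 2 or TAC replicates 1 or 3 (0.0631 to 0.193) and with limma-voom (0.108), and the other Dock1 rings had 8 and 7 reads in TAC and 5 and 9 in sham. Epn2 exons 4-7, from an adaptor of clathrin-coated pits, had 0, 0.959, 4.99 and 1.95 in TAC and 10.0, 4.99, 10.5 and 6.2 in sham (-2.19 ± 0.61; adjusted p = 0.0299), with the highest TAC and the lowest sham library level with each other. Its call was lost without TAC replicates 1, 2 or 4 or sham replicates 1, 2 or 3 (0.0506 to 0.207; -1.58 without TAC replicate 1), with TMM scaling (0.0508) and with limma-voom (0.111). Agap1 exons 4-6, from a GTPase-activating protein for Arf, had 3.08, 0.959, 0 and 0 in TAC and 5.02, 7.48, 4.51 and 4.14 in sham, without overlap (-2.40 ± 0.67; adjusted p = 0.0299). Its call was lost without TAC replicates 2, 3 or 4 or sham replicates 1 or 2 (0.0508 to 0.153) and with limma-voom (0.0638), and the difference was -2.99 without TAC replicate 1.

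The most abundant circles did not pass. The single-exon ring of the transcription factor gene Nfix had 180.0, 144.0, 142.0 and 95.3 normalized reads in TAC and 299.0, 196.0, 120.0 and 169.0 in sham. Its groups overlapped, with sham replicate 1 the highest (-0.44 ± 0.15; limma, adjusted p = 0.133). Med13l exon 2, from the Mediator kinase module, averaged 45.1 ± 6.06 in TAC and 77.1 ± 24.7 in sham (adjusted p = 0.104), and Nfkb1 exons 2-6, from a subunit of NF-kappa B, averaged 45.1 ± 9.29 in TAC and 25.8 ± 11.7 in sham (adjusted p = 0.116). The ring Adgre1 exons 11-12 averaged 35.5 ± 13.3 in TAC and 34.4 ± 26.5 in sham (adjusted p = 0.877). Lrch3 exons 2-6, from a leucine-rich repeat protein, averaged 43.7 ± 22.3 in TAC and 26.9 ± 14.5 in sham (adjusted p = 0.3). Rnf169 exons 2-4 and Rad52 exons 10-11, from a pair of DNA repair genes, averaged 36.5 ± 10.3 and 29 ± 3.63 in TAC, against 30.6 ± 7.68 and 32.4 ± 11.8 in sham (adjusted p = 0.811 and 0.95). Fbxw4 exons 2-5, from an F-box protein, averaged 25 ± 12.8 in TAC and 32.1 ± 16.8 in sham (adjusted p = 0.668). Of the 10 most abundant circles, Tlk1 alone was called. Calls lay mainly among well-read circles: of the 429 with the highest levels 10 were called higher and 9 lower (4.43%), and of the 430 with the lowest levels none were.

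**Figure D4:**
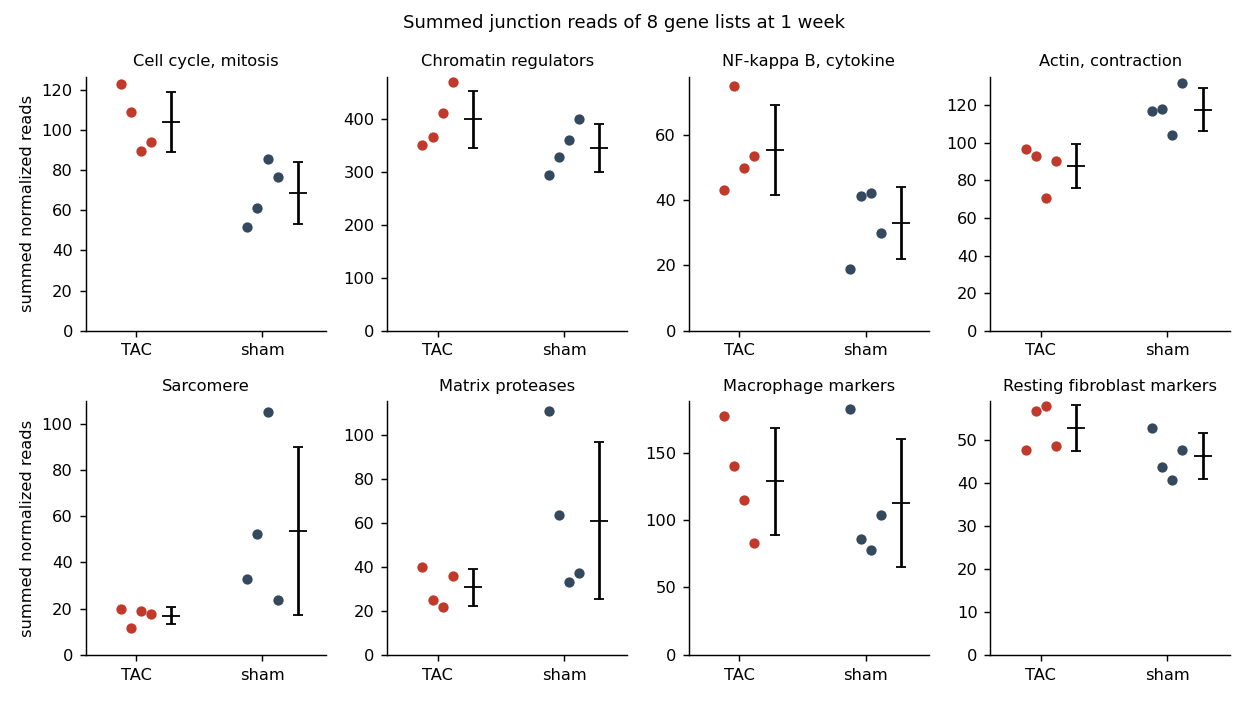
Normalized junction reads summed over the circles of 8 gene lists at 1 week (vertical axes start at 0), with 1 point per library, TAC left and sham right, and the mean with SD beside the points. The groups do not overlap for cell cycle, NF-kappa B, actin and contraction and sarcomere genes, and overlap for chromatin regulators, matrix proteases, macrophage markers and resting fibroblast markers. The cell cycle, actin and sarcomere sums include circles called by the same comparison.

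Other gene lists are given by their counts and medians, to be read against 1.46% called and a median of 0.04 over all circles. NF-kappa B and cytokine genes had 8 circles, 0 called, a median of 0.34 and sums of 43.1 to 74.8 normalized reads in TAC and 18.8 to 42.1 in sham; most of this was the Nfkb1 ring. Transcription factor and Mediator genes had 63 circles, 0 called, with a positive median of 0.37 but a lower sum in TAC, 341.0 to 463.0 against 356.0 to 578.0 in sham; Nfix and Med13l were its largest members. Genes of TGF-beta and SMAD signalling, the pathway best known for driving matrix synthesis in fibroblasts, had 18 circles, 0 called and a median of 0.01. Smad4 exons 5-8 averaged 6.93 ± 1.74 in TAC and 11.6 ± 2.77 in sham (limma, adjusted p = 0.603). Receptor tyrosine kinase and MAPK genes had 35 circles, 0 called, with a median of 0.15; Spred2 exons 2-4, an inhibitor of the pathway, had 13.8, 10.5, 11.0 and 12.6 in TAC and 16.3, 15, 19.5 and 27.9 in sham, non-overlapping but not passing (-0.66 ± 0.40; adjusted p = 0.512). Wnt and Hippo genes (22 circles, median 0.20) and ubiquitin ligases (44 circles, median 0.13) had 0 calls, and DNA replication and repair genes had 16 circles, 0 called and a median of -0.15. RNA-binding and splicing genes had 47 circles, 1 called higher (Gigyf2), and a median of 0.12, and endocytosis genes 62 circles, 1 called lower (Epn2), and a median of 0.06. Calcium, ion channel and muscle metabolism genes had 12 circles, 1 called lower (Ryr2), and a median of -0.18.

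The best-read rings of these lists that have not yet been given did not pass. Amotl1 exons 4-6, from a regulator of the Hippo pathway, averaged 23.7 ± 7.36 in TAC and 31.4 ± 15.2 in sham, and Wwc2 exons 3-4, from the same pathway, 7.27 ± 6.02 in TAC and 13.5 ± 13.1 in sham. Arhgap10 exons 14-18 and Arhgap26 exons 7-11, both from GTPase-activating proteins on the actin list, lay on opposite sides: the first averaged 11.5 ± 4.29 in TAC and 7.62 ± 4.1 in sham, the second 7.84 ± 3.73 in TAC and 11.9 ± 1.49 in sham. Dennd1b exons 6-9, from an exchange factor of vesicle transport, averaged 15.2 ± 5.94 in TAC and 14.7 ± 4.23 in sham, and Picalm exons 14-20 19.3 in TAC and 12.8 in sham. Smad1 exon 2, from a transducer of BMP signals, averaged 8.58 ± 5.25 in TAC and 7.56 ± 4.69 in sham. Insr exon 2 averaged 14.2 in TAC and 11.0 in sham, and Ptbp3 exons 3-5 16.7 in TAC and 13.1 in sham. Ltbp1 exons 2-3, from a protein that holds latent TGF-beta in the matrix, averaged 3.07 ± 1.57 in TAC and 4.86 ± 1.76 in sham, and Adam9 exons 12-14, from a membrane-bound protease, 3.49 ± 1.83 in TAC and 5.81 ± 2.24 in sham. Asph exons 4-13, from the calcium and muscle list, averaged 6.38 ± 5.84 in TAC and 9.78 ± 9.17 in sham, and Irak3 exons 2-5, from an inhibitor of innate immune signalling, 2.23 ± 0.967 in TAC and 1.83 ± 0.558 in sham.

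Cell type lists gave the following levels. Resting cardiac fibroblast markers had 19 circles, 1 called higher (Itgbl1), a median of 0.01 and sums of 47.7 to 57.9 in TAC and 40.6 to 52.8 in sham; Kcnt2 exons 4-8, from a potassium channel, averaged 7.08 ± 4.11 in TAC and 9.67 ± 8.53 in sham. Activated fibroblast markers had 2 circles, both above 0 and neither called: the ring of Runx1, a transcription factor that is also on the macrophage list, had 4.61, 2.88, 0.998 and 2.92 in TAC and 0, 0, 0 and 4.14 in sham, and Nox4 exons 7-12, from an NADPH oxidase, averaged 1.73 ± 2.22 in TAC and 0.882 ± 1.18 in sham. Endothelial markers had 16 circles, 12 below 0 and 0 called (median -0.34; 24 to 57.4 in TAC and 31.4 to 71.1 in sham); Ptprm exons 15-17 averaged 7.11 ± 4.75 in TAC and 9.65 ± 6.3 in sham, and Pecam1 exons 8-13, from the adhesion molecule CD31, had 6.15, 7.67, 6.99 and 5.84 in TAC and 1.26, 3.74, 6.01 and 7.24 in sham. Macrophage markers had 31 circles, 21 above 0 and 0 called (median 0.31), lymphocyte markers 7 circles with 0 called (median 0.50; 23.3 to 36.9 in TAC and 13.5 to 32.7 in sham), and Schwann cell and epicardial markers 3 circles, all above 0, with 0 called. On the macrophage list Adgre1 exons 6-7 averaged 15.5 in TAC and 11.3 in sham. On the lymphocyte list Aff3 exons 2-4, from a nuclear protein of B cells, had 18.5, 11.5, 12 and 9.73 in TAC and 2.51, 7.48, 4.51 and 2.07 in sham, without overlap but not passing (1.64 ± 0.58; limma, adjusted p = 0.142), and Ikzf1 exons 2-3, from the transcription factor Ikaros, averaged 7.74 ± 2.22 in TAC and 9.12 ± 6.62 in sham. On the epicardial list Bnc2 exon 5 averaged 6.25 in TAC and 2.33 in sham, and Bnc2 exons 2-3 3.68 in TAC and 1.26 in sham. The only circle of the mural list, from Abcc9, averaged 2.61 ± 1.54 in TAC and 5.14 ± 4.13 in sham. Hosts that are widely reported to give circular RNAs had 107 circles, 1 called higher and 3 lower, a median of -0.09 and sums of 775.0 to 843.0 in TAC and 870.0 to 1149.0 in sham, without overlap. These sums include the called circles.

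None of 5 measures of the make-up of the circle population differed past the threshold. Single-exon rings took 10.6% ± 0.855 of the reads in TAC and 10.3% ± 1.77 in sham (exact permutation p = 0.743, adjusted over the 5 shares compared 0.743). Rings with untranslated exon sequence took 21.2% ± 1.52 in TAC and 18.9% ± 1.49 in sham (exact p = 0.143, adjusted 0.5), and rings over more than 20 kb 15.3% ± 1.24 in TAC and 14.8% ± 2.18 in sham (exact p = 0.686, adjusted 0.743). The 10 most abundant circles took 7.91% ± 0.579 in TAC and 9.41% ± 2.2 in sham (exact p = 0.2, adjusted 0.5), and rings with neither end at an exon boundary 0.481% ± 0.228 in TAC and 0.732% ± 0.401 in sham (exact p = 0.343, adjusted 0.571; SD, n = 4 each throughout). The called rings had a median of 3 exons, as did all circles, and a median genomic span of 5581 bp against 6241 bp. Of the 17 called rings that lie within coding exons, 7 had a spliced length divisible by 3, against 36.7% of all coding rings.

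The 1-week difference was then set beside those at 4 and 8 weeks, each against sham libraries of its own time. Of the 13 circles called higher at 1 week, 9 had a positive difference at 4 weeks and 8 at 8 weeks, with medians of 2.04, 0.42 and 0.07 at 1, 4 and 8 weeks and 0 called at either later time. Of the 12 called lower, 9 were negative at 4 weeks and 11 at 8 weeks, with medians of -2.30, -0.33 and -0.31, and 1, the Ttn ring, was called at 4 weeks. The median at 1 week is larger partly by the choice of circles, since they were picked there. Few circles were called at the later times at all: over all 1717 circles, 2 at 4 weeks and 0 at 8 weeks. Over all circles 54.2% had a sign at 4 weeks equal to that at 1 week, and 49.2% at 8 weeks. The test of the difference itself found 0 circles whose TAC effect differed between 1 and 4 weeks (0.0%) or between 1 and 8 weeks (0.0%). For host sums 2 of 1187 (0.168%) differed between 1 and 4 weeks, Bub1b and Efnb2, and 0 (0.0%) between 1 and 8 weeks. At an unadjusted p under 0.05 by limma, 138 circles and 102 hosts differed between 1 and 4 weeks, and 148 circles and 107 hosts between 1 and 8 weeks. With limma-voom the adjusted counts were 0 circles and 1 host between 1 and 4 weeks, and 3 circles and 1 host between 1 and 8 weeks.

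Bub1b averaged 25 ± 11.5 in TAC and 6.92 ± 3.07 in sham at 1 week, 5.33 ± 2.79 in TAC and 9.67 ± 3.44 in sham at 4 weeks, and 11.9 ± 2.69 in TAC and 6.0 ± 1.26 in sham at 8 weeks (SD; n = 4 each at 1 week, 4 and 5 at 4 weeks, 3 and 4 at 8 weeks). The effect at 1 week exceeded that at 4 weeks by 2.71 ± 0.64 on the log2 scale (limma interaction contrast, adjusted p = 0.0391). That call was lost without TAC replicates 1, 2 or 3 or sham replicates 2 or 4 of the 1-week groups (adjusted p 0.0514 to 0.153), at a pseudocount of 0.1 (0.123) and with the 1- and 4-week libraries alone (0.0714). Efnb2, the ligand ephrin-B2 that marks arterial endothelium, averaged 4.14 ± 5.75 in TAC and 6.74 ± 3.93 in sham at 1 week, 7.78 ± 2.46 in TAC and 1.64 ± 1.43 in sham at 4 weeks, and 5.76 ± 1.56 in TAC and 8.01 ± 3.69 in sham at 8 weeks. The 4-week sham mean was the lowest of the 6. Its effect was lower at 1 week by -3.58 ± 0.87 (limma, adjusted p = 0.0391), and this call was lost without TAC replicates 1, 2 or 3 or sham replicates 2, 3 or 4 (0.0542 to 0.196), at a pseudocount of 0.1 (0.149), with limma-voom (0.108) and with the 1- and 4-week libraries alone (0.148). Without TAC replicate 1 the difference was -2.81, and without TAC replicate 4, at 12.6 the highest library, it was -4.38.

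The levels at 1 week were set beside those of the later groups as a description, since 1-week libraries were not tested against later libraries of the same surgery. For Ezh2 the TAC mean at 1 week, 48.5, was the highest of the 6 groups and the sham mean at 1 week, 15.7, the lowest, with the other 4 up to 25.9. For Phkb too the TAC mean at 1 week, 19.8, was the highest and the sham mean at 1 week, 8.17, the lowest, with the later groups at 15.6 to 17.0. Gigyf2 exons 4-8 averaged 27.6 in TAC and 10.4 in sham at 1 week, 28.1 in TAC and 23.6 in sham at 4 weeks, and 18.2 in TAC and 18.9 in sham at 8 weeks. For Atxn1 the TAC mean of 27.1 at 1 week stood below the other 5 groups, at 43.9 to 54.8. Ttn was lower in TAC at each time, at 12.2 in TAC and 42.7 in sham at 1 week, 15.5 in TAC and 46.5 in sham at 4 weeks, and 28.3 in TAC and 65.3 in sham at 8 weeks. Among the 12 host sums called higher, the 1-week TAC group had the highest mean of the 6 groups for 12 and the 1-week sham group the lowest for 10; among the 10 called lower, the 1-week TAC group had the lowest mean for 10 and the 1-week sham group the highest for 8. These counts follow in part from choosing hosts by that difference and are given as a description.

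**Figure D5:**
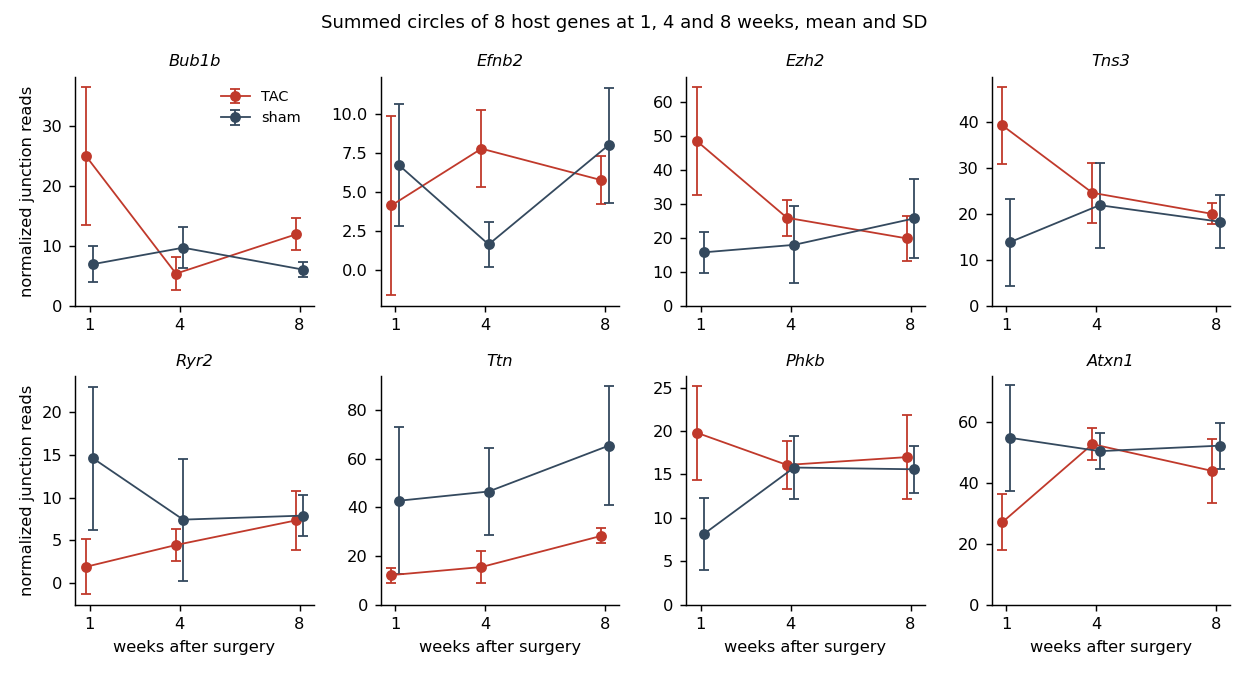
Mean normalized junction reads (vertical axis, with SD) summed over the circles of 8 host genes in TAC (red, drawn left) and sham (dark blue, drawn right) at 1, 4 and 8 weeks after surgery (horizontal axis). Bub1b and Ezh2 stand highest in TAC at 1 week, Phkb lowest in sham at 1 week, and Ttn is lower in TAC at all 3 times.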

How the data were processed

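Back-splice junction reads of cardiac fibroblast libraries were measured by stranded total RNA sequencing; 4 TAC and 4 sham libraries at 1 week were compared, grouped by the sample titles. FastQC, Trimmomatic, STAR and the build mm10 are listed by the submitters' processing notes; the sources used here do not give how circles were called, filtered and normalized. The deposited table holds a normalized signal per circle, not raw counts: with an offset of 0.01 removed, 100% of values were whole multiples of 1 read per library within 0.01 of a read. The deposited library factors departed from the total junction reads by at most 5.47%, from median-of-ratios factors by 14.5% and from TMM factors by 11%. Normalized reads were used as deposited, less the offset.

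Hosts and exons came from GENCODE M21 on mm10: 1666 junctions had both ends at exon boundaries, 36 had 1 and 15 none, and 22 had more than 1 candidate host. Host sums added the normalized reads of all circles of a gene; 319 of 1187 hosts had several. Reads of overlapping rings cannot be told from one another beyond the junction itself.

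The test was limma (version 3.58.1, run in R version 4.3.3) on log2(normalized reads + 0.5) with a trend of the variance on intensity, fitted to all 24 libraries with 6 group means, and Benjamini-Hochberg adjustment over all circles or hosts. A minimum of 2 reads in 3 or more libraries removed no circle. Single values were compared by exact permutation in SciPy 1.17.1. The procedure was also run on simulated counts with 200 changed features and a fixed spread. That spread was not estimated from these libraries, so the run does not measure the error rate of the calls given here. All replicate pairs differed beyond sampling noise (12 pairs, largest chi-square p = 5.66e-06). Counting intervals and floors of 3 reads cover counting error only, since reads without molecular identifiers are not independent molecules. The rule for named genes took every called circle and host, the 10 most abundant circles, the 2 most abundant of each of 25 gene lists and other rings of called hosts; some of these rings are given only within host sums or counts. The members, lists and tests were chosen with earlier results of these data known.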

Additional observations from a re-analysis of the deposited data

Results flagged for a closer look

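Of 216 groups of 4 libraries screened for a library far from the other 3, 11 held one; chance alone gives about 5% of groups. TAC replicate 2 held 6.71 normalized reads for the Ryr2 host sum, against 0 to 0.973 in the other TAC libraries, and TAC replicate 2 held 5.75 for Bnc2 exons 2-3, from a zinc finger protein, against 2.92 to 3.08. TAC replicate 3 held 25 for Ptbp3 exons 3-5, a splicing regulator (others 13.6 to 14.4), and 14 for Picalm exons 14-20, a clathrin adaptor (others 20.4 to 21.5). Sham replicate 1 held 20.1 for Tns3 exons 14-16 (others 4.51 to 6.2) and 74.1 for Adgre1 exons 11-12 (others 19.6 to 22.5). Sham replicate 3 held 0.0 for Tns3 exons 18-20 (others 3.74 to 4.14) and 27.0 for the Ryr2 host sum (others 8.73 to 11.4). Sham replicate 4 held 17.6 for Insr exon 2, from the insulin receptor (others 8.73 to 9.02), 4.14 for Runx1 exons 5-6 (others 0.0) and 0.0 for the Itpr2 host sum (others 2.49 to 3.01).

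The effect of TAC differed between times for 2 host genes by the interaction contrast of limma. For Bub1b the log2 effect at 1 week exceeded that at 4 weeks by 2.71 (adjusted p = 0.0391), and for Efnb2 the effect at 1 week minus that at 4 weeks was -3.58 (adjusted p = 0.0391). Neither difference was called against 8 weeks (Bub1b 0.84, adjusted p = 0.747; Efnb2 -0.99, adjusted p = 0.775).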

How the results depend on the processing

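The 25 circles and 22 host genes called at 1 week kept their direction under every alternative run. With the 1-week libraries alone, 4 circles and 8 hosts were called; fewer libraries set the spread there. limma-voom called 14 circles, 13 of them shared with the 25, and 20 hosts, 17 of them shared with the 22. Pseudocounts of 0.1 and 1, both rescalings and a filter at a mean of 5 reads kept both counts within 1.5 times. That filter left 217 circles and 265 hosts to test, and some of the 25 circles fell below it. It called 20 circles, 11 of them shared with the 25, and 16 hosts, 13 of them shared with the 22. The fit with no filter was the same as the main fit, since the main filter removed nothing. Leaving out 1 library gave 6.0 to 32.0 circles and 12.0 to 31.0 hosts. Replicate numbers are shared between TAC and sham. Deviations of same-numbered libraries had small positive correlations (0.135, 0.022, 0.053 and 0.083), against -0.119 to 0.096 for differently numbered libraries. The labels do not say whether equal numbers mark a pair, and the main fit did not treat them as pairs. With the replicate block, 40 circles and 42 hosts were called. In that fit 1 circle and 3 hosts differed in effect between 1 and 4 weeks, and 2 circles and 5 hosts between 1 and 8 weeks.

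Between 1 and 4 weeks, the 2 host genes became 0 at a pseudocount of 0.1 and with the 1- and 4-week libraries alone, and 1 with limma-voom or the stricter filter; leaving out a library gave 0.0 to 7.0, and 0.0 to 1.0 circles. Between 1 and 8 weeks, 2 circles were called at a pseudocount of 1, and 3 circles and 1 host with limma-voom; leaving out a library gave 0.0 to 8.0 circles and 0.0 to 4.0 hosts. The cause was not tested. Leaving out a library moved the TAC minus sham difference in reads per library between 217.0 and 1064.0, in circles at equal depth between 6.81 and 49.9, and in percentage points of reads between -0.401 and 1.02 for single-exon rings (negative without sham replicate 3), 1.59 and 2.79 for rings with untranslated sequence, -2.17 and -0.463 for the 10 most abundant, -0.365 and 1.39 for rings over 20 kb (negative without sham replicate 1) and -0.367 and -0.0776 for rings off exon boundaries. Planned count-model fits in other packages were not run, because the deposited values carry an offset and are not raw counts as they stand. With the offset removed whole reads could be recovered, and limma-voom was run on these. A median of 2 reads per circle and library limits what could be called: none of the 430 circles of lowest level was.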
